A study of Mus musculus with 4 samples.

Results

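Switching off MYC in cultured mouse lymphoma cells was followed by comparing 1 array of cells grown with doxycycline (DOX) with 1 array of the same cells grown without it. The genes described are those with a detection p-value of at most 0.01 on either of these arrays, 8346 of the 19057 genes on the array design. The cells are CL4188, 1 line derived from a lymphoma of the FVB/N mouse strain with conditional MYC, and DOX turns its MYC transgene off. Both groups carried the empty retroviral vector MSCV and are called control cells. The group with MYC on received no DOX and the group with MYC off received 20 ng/ml of DOX for 48 hours, both in RPMI medium. The other arrays of the series, from the same line carrying the microRNA cluster miR-17-92 in that vector, entered the normalization. The labels do not name the promoter that drives the transgene or the species of its MYC, and results from 1 line are results on that line. Each group held 1 array, so no value below has a replicate check, no p-value or SE is given, and the number of arrays limits the precision. Arrays with and without DOX were on different slides, and effects of slide and DOX cannot be told apart.

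MYC is a transcription factor of the basic helix-loop-helix leucine zipper family that binds DNA as a dimer with MAX, most strongly at the E-box CACGTG. It is known for driving ribosome production, nucleotide and amino acid metabolism and entry into the cell cycle, and for holding lymphoid cells in an immature, proliferating state. In mouse lymphomas with a conditional MYC, its loss is known to stop proliferation and to let the cells differentiate or die.

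The mean bead intensity of each probe was corrected for background, put on the log2 scale and quantile normalized, and this normalized log2 signal is called the signal. A log2 ratio is the signal with DOX minus the signal without DOX, so a negative ratio means a lower signal with MYC off. Levels are not compared between genes, since each probe has its own brightness. Ratios are relative to the other genes, because the normalization gives all arrays 1 distribution, and less RNA per cell or fewer cells of a kind cannot be told apart in bulk RNA. Raw median intensities were 138.7 without DOX and 127.3 with DOX, and 13251 and 14864 of 45281 probes were detected.

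The labels name the cells only as lymphoma, and markers of blood and stromal cell types were therefore read first. Of 13 T-cell markers on the array, 10 were detected without DOX and 12 with DOX, including Cd3d, Cd3e, Cd3g, Cd4, Thy1 and Bcl11b. No B-cell, myeloid, erythroid or platelet marker of 24 on the array was detected without DOX, and with DOX Vpreb1 and Itgam were, at least 3.23-fold and at least 1.75-fold higher. Prf1 was the 1 natural killer marker of 6 that was detected, with a log2 ratio of 1.38. Of 10 stromal and endothelial markers Pecam1 and Vim were detected on both arrays, with log2 ratios of 1.90 and 1.47. Summed over the markers on the array, the T-cell signal was 143.5 without DOX and 165.8 with DOX, the B-cell signal 43.6 and 46.1, and the myeloid signal 52.3 and 54.8. The natural killer sum was 34.6 and 37.1, the erythroid and platelet sum 30.9 and 32.2, and the stromal and endothelial sum 58.4 and 62.2. Each of these sums was higher with DOX, but they add log2 signals of detected and undetected markers. Of 6 erythroid and platelet markers 0 were detected on either array, so their sum holds background signal alone. Most B-cell and myeloid markers were undetected too, so a higher sum does not show more cells of a type. The part that cells of other types had in the results was not tested.

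Myc itself gave a signal of 8.80 without DOX and 4.92 with DOX, where it was not detected, so it was at least 6.28-fold lower. The probe reads mouse Myc. Mir17hg, the transcript that hosts the mouse miR-17-92 microRNAs, had a signal of 10.34 without DOX and 6.73 with DOX, 12.3-fold lower. Both signals were thus high with MYC on and low with MYC off. The microRNAs cut from this transcript were not measured by these arrays. Their mature sequences, from RefSeq on build GRCm38.p6, all lie on the plus strand of chromosome 14, and they are shown because the paired cells of the study carry this cluster. Capitals mark the seed, bases 2 to 8 from the 5′ end, which pairs with target transcripts.
mmu-miR-17-5p, chr14:115043684-115043706: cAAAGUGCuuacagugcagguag
mmu-miR-20a-5p, chr14:115044183-115044205: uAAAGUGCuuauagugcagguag
mmu-miR-18a-5p, chr14:115043867-115043889: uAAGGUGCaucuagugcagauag
mmu-miR-19a-3p, chr14:115044048-115044070: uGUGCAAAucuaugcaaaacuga
mmu-miR-19b-3p, chr14:115044358-115044380: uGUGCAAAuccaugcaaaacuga
mmu-miR-92a-3p, chr14:115044476-115044496: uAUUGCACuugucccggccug
The first pair shares the seed AAAGUGC and the miR-19 pair shares GUGCAAA, so the transcript that was lower with DOX encodes 4 distinct seeds.

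The partners of MYC differed in their ratios. Max, the obligate partner, had signals of 8.53 without DOX and 8.59 with DOX, a log2 ratio of 0.06. Mxd4, a repressor that competes for MAX, had signals of 11.84 and 14.70 and was 7.24-fold higher with DOX. Mxd3 was 2.59-fold higher and Mxd1, not detected without DOX, at least 2.39-fold higher. Thus the genes of 3 MXD proteins were past 2-fold, while Mxi1 of the same family had a log2 ratio of 0.22. In the parallel MLX branch, which senses glucose, Mlx had a log2 ratio of 1.03 and Mlxip one of -0.58. Txnip, a target of that branch and a brake on glucose uptake, had signals of 8.94 and 14.64 and was 52.0-fold higher. Zbtb17, encoding the MYC partner MIZ-1, had a log2 ratio of 0.93, and Mga was detected with DOX alone, too near the background for a fold.

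Of the 8346 genes, 1720 were at least 2-fold higher with DOX, which is 20.6%, and 1535 were at least 2-fold lower, which is 18.4%, together 39.0%. These shares are the background for the counts of every group below. The median log2 ratio was 0.08 with an SD over genes of 1.30, and 5% of genes lay below -2.05 and 5% above 2.10. At 4-fold the counts were 473 higher and 443 lower, at 16-fold 46 and 44, and at 32-fold 11 and 12, so the response was close to balanced at each size. The balance depended on the scaling: higher genes were 52.8% of those past 2-fold here and 40.4% in the authors' processed values. Genes detected on both arrays numbered 7122. Another 907 were detected with DOX alone and 317 without DOX alone, and of these 200 and 167 were past 2-fold as a lower bound. Ranked by mean signal, 55.3% of the 2087 dimmest genes lay within 2-fold, against 65.7% of the 2087 brightest.

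**Figure D1:**
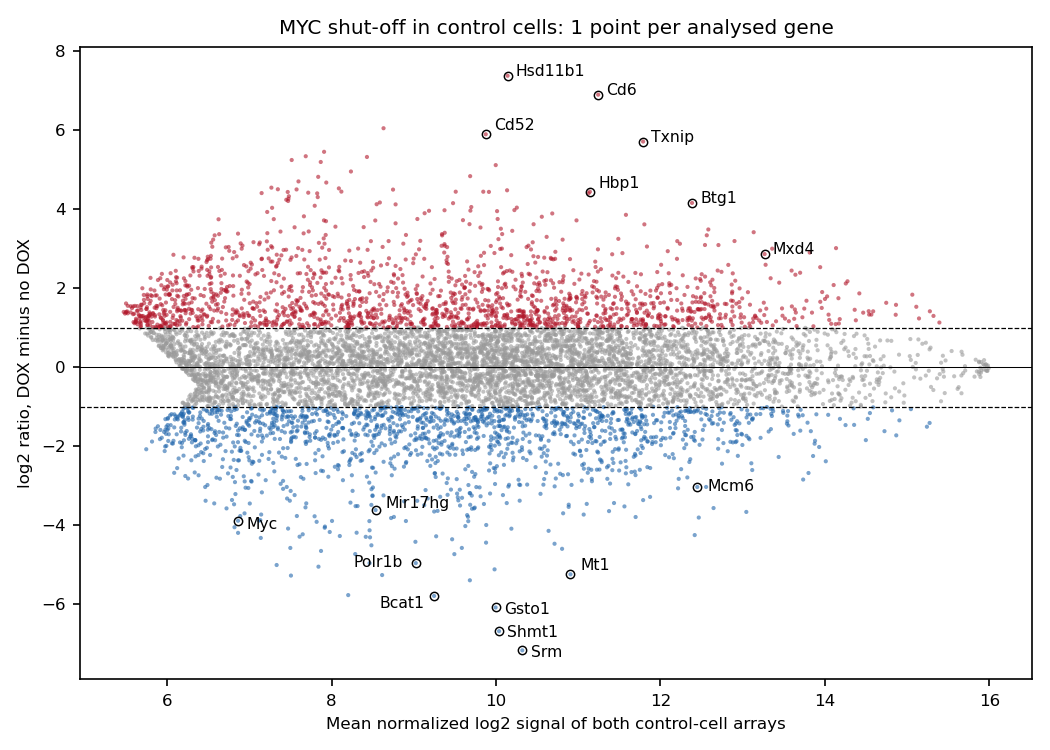
Each point is 1 of the 8346 analysed genes, placed by its mean normalized log2 signal on both control-cell arrays (x axis) and by its log2 ratio of DOX minus no DOX (y axis). Red and blue points are at least 2-fold higher and lower (dashed lines at 1 and -1), grey points lie between, and ringed genes are named; Hsd11b1 and Myc were detected on 1 array.

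The gene with the lowest ratio was Srm, which encodes spermidine synthase. Its signal was 13.90 without DOX and 6.74 with DOX, 143-fold lower. Shmt1, a serine hydroxymethyltransferase that feeds folate-bound carbon units, had signals of 13.38 and 6.70, 102-fold lower. Gsto1, a glutathione transferase, was 67.5-fold lower (13.03 and 6.96). Bcat1, an aminotransferase of branched-chain amino acids, was 55.2-fold lower (12.14 and 6.35). Rangrf was 42.0-fold lower, followed by Mt1, a metallothionein, 37.8-fold lower (13.53 and 8.29). Several of the remaining lowest genes encode proteins of RNA production: Polr1b, a subunit of RNA polymerase I, was 31.0-fold lower, Rrp12, a factor in ribosomal subunit export, 24.2-fold, and Pusl1, a pseudouridine synthase, 22.7-fold. Ung, which removes uracil from DNA, was 22.1-fold lower and Dctd, which makes dUMP from dCMP, 21.4-fold. Efhd1 was 34.6-fold and Ybx3, a cold-shock domain protein, 26.5-fold lower. Ppa1, which splits pyrophosphate, was 19.0-fold lower, and its signal of 10.29 with DOX was still well detected. Tmem238, Angptl4, Sh3bgrl2, Smyd5, a SET-domain methyltransferase, and St6galnac4, a sialyltransferase, were between 19.4-fold and 21.7-fold lower. Among genes not detected with DOX, Fkbp11 was at least 34.1-fold lower, Car12, a carbonic anhydrase, at least 30.5-fold, Mcrip2 at least 27.6-fold and Ipo4, an importin, at least 22.6-fold. Fjx1, Mnd1, Mpp3, Mettl1, which methylates tRNA, Smco4 and Itgb5 followed with bounds between 13.9-fold and 18.5-fold.

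The gene with the highest ratio among those detected on both arrays was Cd6, a receptor on T cells. It had signals of 7.80 without DOX and 14.69 with DOX, 118-fold higher. Cd52, a lymphocyte surface glycoprotein, had signals of 6.93 and 12.82, 59.1-fold higher. Tespa1, which takes part in T-cell receptor signalling in thymocytes, was 28.4-fold higher (7.27 and 12.10). Dok2, an adaptor that dampens kinase signalling, was 22.2-fold higher, and Bcl6, a transcriptional repressor of lymphocytes, had a log2 ratio of 4.39. Hbp1, an HMG-box repressor of cell-cycle genes, was 21.6-fold higher, Btg1, an antiproliferative factor, 17.8-fold, and Pik3ip1, an inhibitor of PI3K, 17.7-fold. Ltb, encoding lymphotoxin beta, was 16.3-fold and Ifngr1, a chain of the interferon gamma receptor, 15.7-fold higher. Ampd1, an AMP deaminase, was 21.5-fold higher, Pik3r3, a regulatory subunit of PI3K, 16.5-fold, and Rab3d, a GTPase of secretory vesicles, 15.5-fold. Tctex1d1 was 34.4-fold higher, and Wdr78, Fam102a, Igsf23, Fam214a and Lypd6b lay between 15.5-fold and 21.6-fold. Among genes not detected without DOX, Hsd11b1, which regenerates active glucocorticoid, reached a signal of 13.82 with DOX, at least 146-fold higher. The bound was 32.4-fold for Abi3. Prr33 was at least 21.9-fold, Gbp2, a guanylate-binding protein induced by interferon, at least 20.5-fold and Eci3 at least 16.8-fold higher. Tox, a factor of thymocyte selection, was at least 16.4-fold higher, Slamf1, a lymphocyte receptor, at least 15.7-fold, with Myo1f between them, Clec2d at least 14.2-fold and Socs3, a feedback inhibitor of cytokine signalling, at least 13.2-fold.

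**Figure D2:**
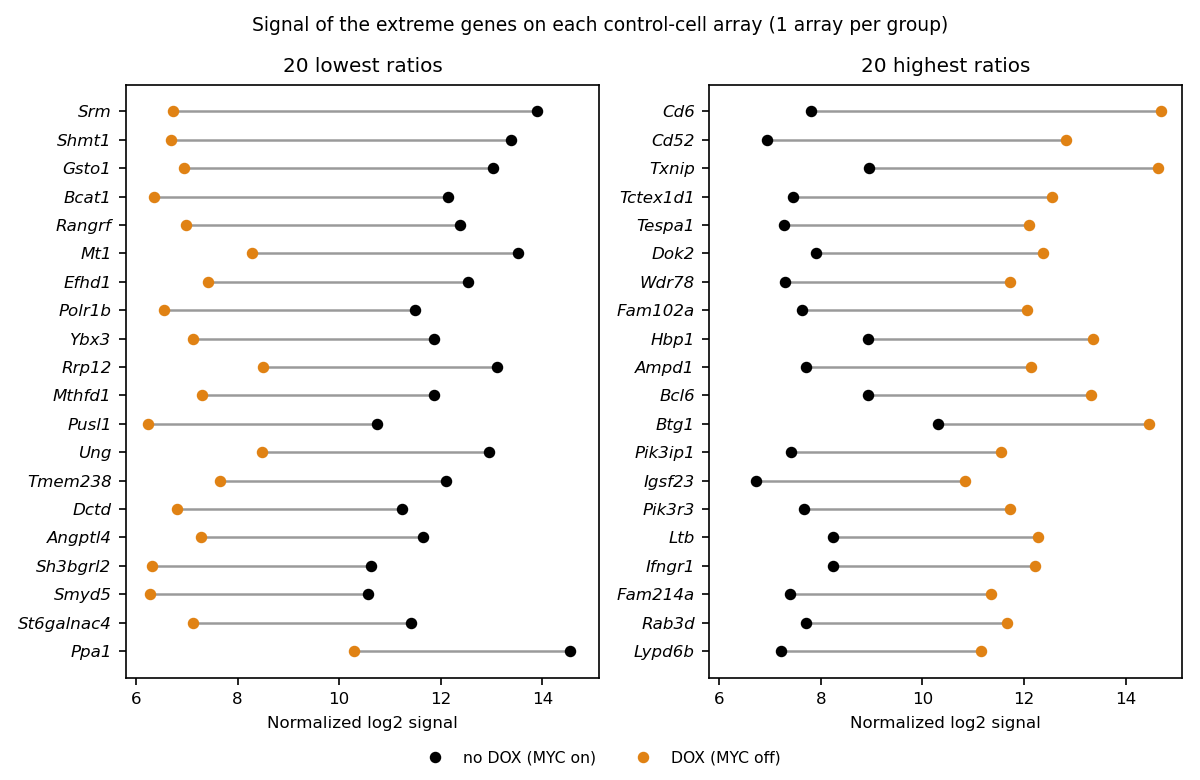
Normalized log2 signal (x axis) on the array without DOX (black) and with DOX (orange) for the 20 lowest and the 20 highest ratios among genes detected on both arrays, 1 array per point. Srm at the top left and Cd6 at the top right span the widest gaps, and the lowest genes other than Ppa1, at 10.29, end below 9 with DOX.

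Where the array carried several probes for a gene, they gave a spread within the arrays, though none between cultures. Of 3340 genes with at least 2 detected probes, both brightest probes had ratios of the same sign in 84.8%. The share was 77.7% of genes within 2-fold, 95.7% between 2-fold and 4-fold, and 98.1% at 8-fold and beyond. The spread per probe, a robust SD of the gap divided by the square root of 2, was 0.32 on the log2 scale. A single ratio under this size cannot be told from 0 by the probes. As 0.32 is 1 SD and no limit of resolution, a ratio just above it is not thereby resolved. Among genes at 8-fold and beyond this spread was 0.56. There the second probe could give a smaller or a larger ratio, as for Bcat1 (-5.79 and -3.35), Cd52 (5.89 and 4.21) and Ampd1 (4.43 and 5.46). Of 1256 genes whose brightest probe was past 2-fold, the second probe was past 2-fold the same way in 74.6%. In 9 genes the probes were past 2-fold in opposite directions. The widest were H2bc21, a histone gene (-2.03 and 2.29), Ddx49, an RNA helicase (-1.52 and 2.38), Tsr1, a ribosome maturation factor (-2.66 and 1.04), and Zfp276 (1.49 and -1.49), so the direction of these genes is uncertain. Averaged over their probes, Ezh2, H3c7, Mlx, Thy1, Timm17b and Tk1, which are named here as 2-fold changed, also came inside 2-fold.

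**Figure D3:**
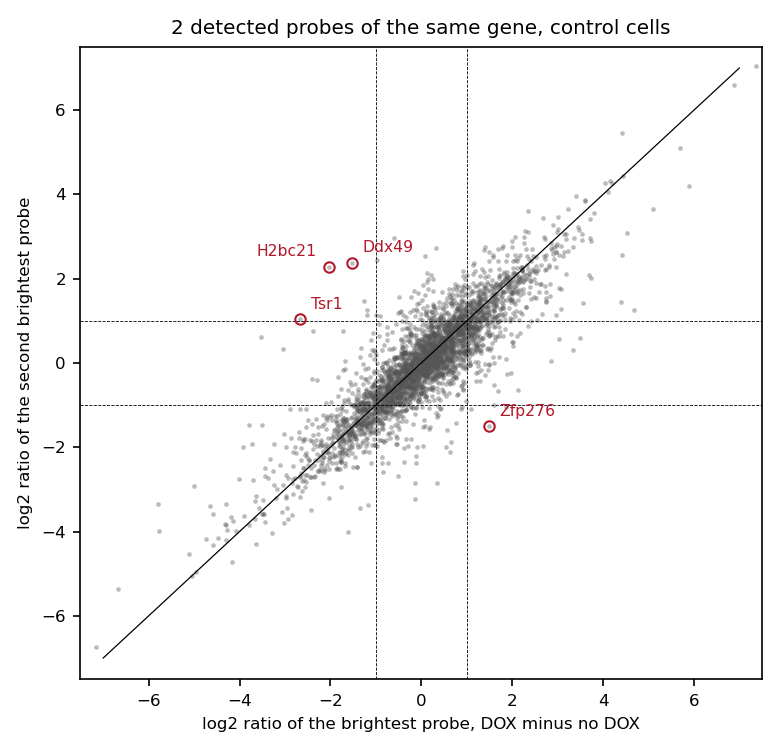
Log2 ratio of the brightest detected probe (x axis) against that of the second brightest probe (y axis), 1 point per gene of the 3340 with at least 2 detected probes, with the line of equality and dashed lines at 2-fold. Most points follow the line, and the 4 ringed genes had both probes past 2-fold in opposite directions.

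The genes that make proteins were read in groups, from the transcription of ribosomal RNA to translation. Of 13 analysed subunits and factors of RNA polymerase I, which transcribes ribosomal RNA, 9 were at least 2-fold lower and 0 higher, with a median log2 ratio of -1.12 against 0.08 over all analysed genes. Polr1b (signals of 11.50 and 6.55), Polr1a (12.66 and 8.97) and Cd3eap (10.96 and 7.68) were the lowest, at -4.96, -3.70 and -3.28. The factor Ubtf, which opens ribosomal genes, stood at -1.57, and Taf1a and Znrd1 lay slightly above 0, at 0.40 and 0.42. Of 14 genes listed for proteins that guide or carry out chemical modification of ribosomal RNA, 11 were 2-fold lower and 1 higher (median -1.99). Nhp2 (14.88 and 11.21) and Gar1 (14.42 and 11.81) of the pseudouridine guide particles had ratios of -3.66 and -2.60, and the methyltransferase Nop2 -2.93. The higher gene was Bmt2, detected with DOX alone, at least 2.67-fold higher. It was listed by its name, and a role in this modification in mouse was not checked.

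Of 19 genes of RNA polymerase III, which makes transfer RNA and 5S RNA, 4 were 2-fold lower, 21.1% and so near the background share, and 1 was higher, with a median of -0.35. Polr3e was at -2.86 and Polr3g at -1.81, whereas Maf1, the repressor of this polymerase, was 2-fold higher (13.57 and 14.79, ratio 1.21). Of 18 cytosolic aminoacyl-tRNA synthetases, which load amino acids on transfer RNA, 10 were 2-fold lower and 0 higher (median -1.01). Vars, the valine enzyme, had signals of 11.52 and 7.95 and the lowest ratio, -3.57, followed by Iars at -1.88 and Eprs at -1.78. Of 33 translation initiation factors 11 were 2-fold lower and 2 higher (median -0.63). Eif2b3, a subunit of the exchange factor for eIF2, stood at -3.02, Eif1a at -2.64, Eif3b at -2.53 and Eif5a, the protein modified with spermidine, at -2.38 (15.20 and 12.82). The 2 higher genes were Eif4e3 at 1.49 and Eif1b at 1.19.

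Of 52 analysed cytosolic ribosomal protein genes 11 were 2-fold lower, a share close to the background, and 0 were higher, with a median of -0.35. Ratios below 0 were found for 47 of them and for 46.9% of all analysed genes, and some of these are smaller than the probe spread. Rplp0 (12.13 and 9.32) and Rpl4 (13.15 and 10.60) had ratios of -2.82 and -2.55, while Rpl9 and Rpl41, near the top of the signal range, lay at -0.06 and 0.03. Ribosomal proteins, histones and MHC class I genes have near-identical copies that a probe can read together, so their single values are uncertain. The 10 genes with the highest mean signal, among them Rplp1, Eef1a1, Ppia, Tuba1b, CYTB and 3 histone H2A genes, had ratios within 0.10 of 0. Raw signals above 60000 were found for 37 genes without DOX and 13 with DOX, and the part that this end of the scale had in their ratios was not tested. The median of the ribosomal protein genes was -0.81 with median scaling and -0.96 in the authors' processed values, so the size of their ratio depends on the scaling.

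Transport through the nuclear envelope and splicing followed the lower groups. All 25 analysed nuclear pore genes had ratios below 0, and 14 were 2-fold lower (median -1.30). Nup43, Nup133 (11.67 and 9.49) and Nup85 (12.06 and 10.25), members of the Y-shaped complex that builds the pore scaffold, had ratios of -2.83, -2.18 and -1.81. Ndc1, which anchors the pore in the membrane, stood at -1.87, and Nup88 lay closest to 0 at -0.04. Of 23 nuclear export and import factors 9 were 2-fold lower and 0 higher (median -0.79). Ipo5 (-2.87), Ranbp1 (14.98 and 12.73, -2.25) and Rcc1, the exchange factor that charges Ran (-2.19), were lowest among those detected on both arrays. Of 38 core spliceosome genes 12 were 2-fold lower and 0 higher (median -0.90), and 35 lay below 0, against 46.9% of all analysed genes. Their range was narrow, from Prpf19 at -1.45 to Prpf18 at 0.74, with Snrpd2 at -1.41.

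All 8 subunits of the cytosolic chaperonin CCT had ratios below 0, and 5 were 2-fold lower (median -1.41), led by Cct6a (14.84 and 12.91) at -1.94. In mitochondria 11 of 14 chaperones, proteases and prohibitins were 2-fold lower and 0 higher (median -1.68). Hspe1 (13.52 and 10.23) and Hspd1 (15.16 and 12.31), which form the mitochondrial chaperonin, had ratios of -3.28 and -2.84. Of 19 genes of the endoplasmic reticulum 4 were higher and 2 lower, with a median of 0.07. The higher count was near the background share and the lower count under it. Xbp1, a transcription factor of the unfolded protein response, was 2-fold higher at 2.44 (12.38 and 14.81), as were Dnajb9 at 1.55, Syvn1 at 1.46 and Dnajc3 at 1.29. Sdf2l1 and the main chaperone Hspa5 were lower, at -1.57 and -1.02. Of 30 core proteasome genes 3 were 2-fold lower and 0 higher, under the background share, with a median of -0.32.

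Of 12 enzymes and carriers of serine, glycine and folate metabolism 10 were 2-fold lower and 1 higher, with a median of -2.88, the lowest of the 60 lists. Besides Shmt1, Mthfd1 (11.87 and 7.30), Shmt2 (11.07 and 7.42) and Phgdh (12.14 and 8.94), the first enzyme of serine synthesis, had ratios of -4.57, -3.65 and -3.20. Gldc, which breaks glycine down in mitochondria, went the other way and was at least 8.26-fold higher. Of 11 genes of purine synthesis 8 were 2-fold lower and 0 higher (median -1.60), from Gart (13.20 and 9.55) at -3.64 to Paics at -1.08. Of 20 genes of pyrimidine and deoxynucleotide synthesis 11 were 2-fold lower and 1 higher (median -1.10). Dctd (11.23 and 6.81) stood at -4.42, Cad (10.53 and 6.40), the enzyme of the first steps, at -4.13, Dhodh at -3.27 and Ctps at -2.83. The higher gene was Tk2, the mitochondrial thymidine kinase, at 1.38.

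In polyamine metabolism the enzymes of synthesis were low and the brakes were not. Odc1, the first enzyme, had signals of 14.43 and 10.86, a ratio of -3.56. Amd2 was at -1.69, and with Srm these were the 3 of 8 genes that were 2-fold lower. Oaz2, an antizyme that inhibits Odc1, was at 1.12 and Smox, which oxidises spermine, at 0.89. The median of the 8 genes was -0.90. Of 26 metallothionein, glutathione and thioredoxin genes 12 were 2-fold lower and 1 higher (median -0.86). Txnrd2 at -2.54 (9.76 and 7.22) and Gstz1 at -2.27 followed Gsto1 and Mt1, and Mgst2 was the higher gene at 1.45.

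Genes of the ATF4 response to amino acid shortage split in 2 directions. Of 15 genes 7 were 2-fold lower and 4 higher (median -0.56). The lower ones included the biosynthetic enzymes Asns (12.86 and 9.91, -2.95), Psat1 (13.72 and 10.93, -2.79) and Phgdh. The higher ones were Ddit4, an inhibitor of mTORC1 (9.87 and 13.11, 3.24), Vldlr (3.19), Ddit3 (7.03 and 9.67, 2.64) and Slc7a11 (1.15). Atf4 itself had signals of 13.41 and 12.85. Of 12 amino acid transporters 4 were 2-fold lower and 1 higher (median -0.58), with Slc1a4 at -2.22, Slc7a6 at -1.89 and Slc1a5, a glutamine carrier, at -1.48.

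In mitochondria the import machinery had a larger share of genes past 2-fold than the respiratory chain. Of 25 import genes 12 were 2-fold lower and 1, Timm17b, was higher, detected with DOX alone (median -0.98). Timm8a1 (13.59 and 9.80), Timm9 (13.75 and 10.68) and Timm10 (11.26 and 8.76), small chaperones of the intermembrane space, stood at -3.79, -3.07 and -2.51, and the outer pore Tomm40 at -2.40. Of 34 complex I subunits 7 were 2-fold lower and 0 higher, near the background share, with a median of -0.32. Of 35 subunits of complexes II to V 5 were 2-fold lower and 1 higher (median -0.38). Of 18 genes of the TCA cycle and pyruvate dehydrogenase 6 were 2-fold lower and 0 higher (median -0.80). Suclg2, the GTP-specific succinyl-CoA ligase subunit, had signals of 11.64 and 7.62 and a ratio of -4.02, and Idh3a -2.03. Of 13 glycolysis genes 1 was lower, Pgam1 at -2.22, and 1 higher, Hk1 at 1.23, with a median of -0.48 (Ldha -0.96, Gapdh 0.06).

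Lipid synthesis differed between its lists. In cholesterol synthesis 5 of 17 genes were 2-fold lower, above the background share of 18.4%. In the same list 1 was higher, under the background share of 20.6% (median -0.27). Lss stood at -2.01 and Sqle at -1.74, and Insig1, which holds the SREBP factors back, at 1.79. Of 11 fatty acid synthesis genes 1 was lower, Elovl6 at -2.43, and 0 higher (median -0.12).

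**Figure D4:**
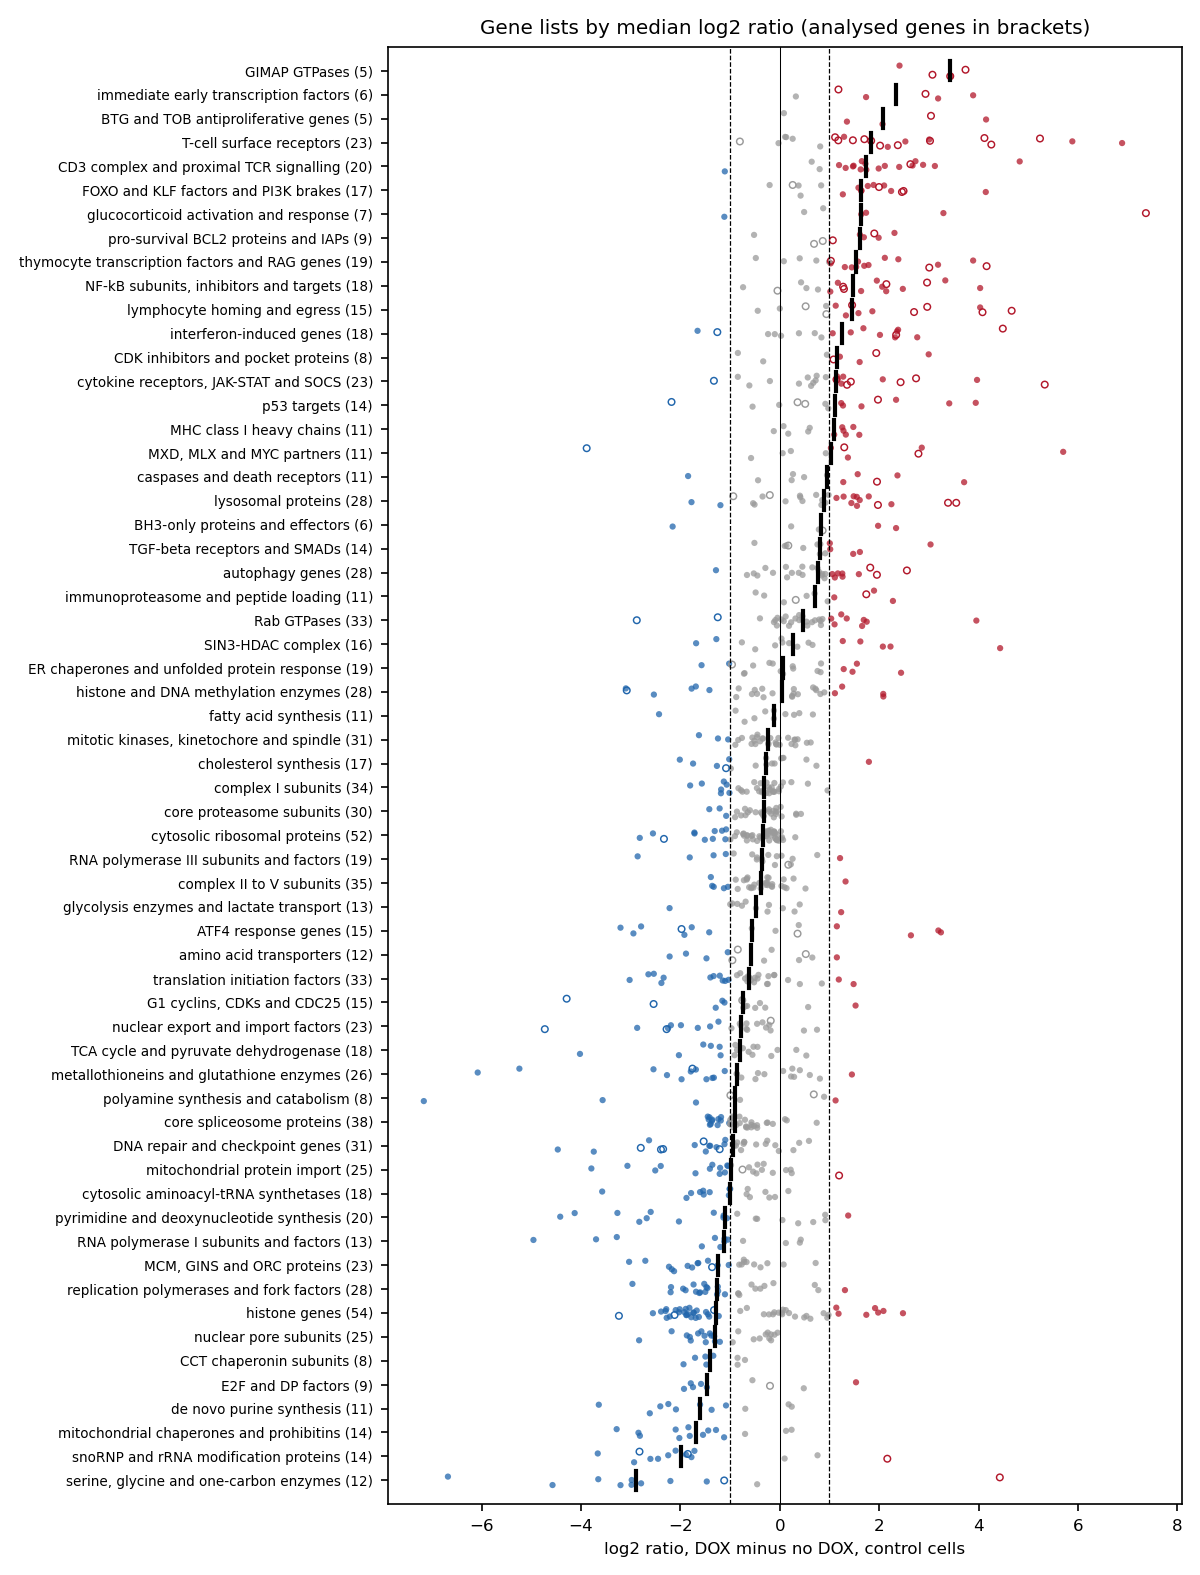
Log2 ratio of DOX minus no DOX (x axis) for each analysed gene of 60 gene lists, ordered by the median (black bar), with the number of analysed genes in brackets. Filled points were detected on both arrays and open points on 1; red and blue points are past 2-fold (dashed lines). The lists run from serine, glycine and one-carbon enzymes at -2.88 to GIMAP GTPases at 3.43.

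DNA replication genes held a larger share of lower genes than mitotic genes. Of 23 MCM, GINS and ORC genes, which license and open origins, 13 were 2-fold lower and 0 higher (median -1.25). Mcm6 (13.96 and 10.93), Gins2 (11.10 and 8.40), Mcm3 (11.15 and 8.92) and Mcm10 (12.85 and 10.67) stood at -3.03, -2.71, -2.23 and -2.17. Of 28 replication polymerase and fork genes 17 were 2-fold lower and 1 higher (median -1.25). The catalytic subunits Pole (-2.19) and Pold1 (-1.94) and the accessory subunit Pold2 (13.09 and 10.13, -2.96) were low, while the small subunit Pold4 was at 1.31. Of 31 repair and checkpoint genes 15 were 2-fold lower and 0 higher (median -0.93). After Ung, Apex1, the nuclease of base excision repair, had signals of 11.52 and 7.78 (-3.74), and the checkpoint kinase Chek1 9.21 and 6.58 (-2.63). Of 31 mitotic kinase, kinetochore and spindle genes 3 were 2-fold lower, Nuf2, Cenpn and Aurkb, and 0 higher, under the background share, with a median of -0.23. Plk1 had signals of 12.87 and 11.98, Tpx2 11.08 and 11.05, and Prc1 12.84 and 13.39.

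Among regulators of the G1 phase, Ccnd2, encoding cyclin D2, had a signal of 9.75 without DOX and was not detected with DOX, at least 12.1-fold lower, and Cdk6 was at least 3.70-fold lower. Ccnd3, encoding cyclin D3, went from 14.35 to 15.88, a ratio of 1.52, and was the 1 higher gene of 15, of which 5 were lower (median -0.73). Ccne2 and Ccne1, the E cyclins, stood at -1.29 and -1.16. Of 9 E2F and DP genes 5 were 2-fold lower and 1 higher (median -1.47). E2f1 (11.21 and 9.28), Tfdp1 (12.92 and 11.13) and E2f3 (9.95 and 8.21) were at -1.93, -1.79 and -1.75, and E2f2 (12.83 and 14.37) at 1.53. Among 8 CDK inhibitor and pocket protein genes 5 were 2-fold higher and 0 lower (median 1.15). The 5 include Rbl2, detected only with DOX with a bound of 0.73-fold, so its direction is not resolved. Cdkn2d, an inhibitor of CDK4 and CDK6, had signals of 8.57 and 11.57, 7.98-fold higher, Cdkn2c of the same family 10.43 and 12.03 (1.61), and Rb1 11.18 and 12.39 (1.21). Cdkn1b, encoding p27, was at least 3.11-fold higher, and Cdkn2a had a ratio of -0.84.

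The next lists hold antiproliferative, signalling and stimulus-response genes. Together with the MYC network described above they make 58 genes, of which 34 were 2-fold higher and 2, Myc among them, lower. Of the 46 detected on both arrays 25 were higher and 1 lower. Of 5 antiproliferative BTG and TOB genes 4 were 2-fold higher and 0 lower (median 2.07). Btg1 led (10.31 and 14.46), Tob1 was at 2.07, Btg2 at least 2.71-fold higher, and Btg3 at 0.08. Of 17 FOXO and KLF factors and inhibitors of PI3K signalling 12 were 2-fold higher and 0 lower (median 1.64). Klf13 (11.31 and 13.55), the phosphatase Inpp5d (6.88 and 8.98) and Klf7 (10.39 and 12.28) had ratios of 2.24, 2.10 and 1.89, and the FOXO factors Foxo1 and Foxo3 1.77 and 1.27. Of 14 TGF-beta receptor and SMAD genes 5 were 2-fold higher and 0 lower (median 0.81), with Tgfbr2, the receptor chain that binds the ligand, at 3.03 (8.86 and 11.89). Of 19 immediate early genes on the array 13 were detected on neither array. Of the other 6, 5 had ratios past 2-fold (median 2.33), but Jund and Nr4a2 were detected only with DOX, and the bound for Nr4a2 was 0.80-fold, so its direction is not resolved. The examples include Egr1 at 3.89 (7.19 and 11.08) and Zfp36, which destabilises mRNA, at 3.19. Of 7 glucocorticoid genes 4 were 2-fold higher and 1 lower (median 1.64). Sgk1, a kinase, stood at 3.29 (8.97 and 12.26), next to Hsd11b1, while Fkbp5 was at -1.12.

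Of 9 pro-survival BCL2 and IAP genes 6 were 2-fold higher and 0 lower (median 1.61, or 0.85 with the 4 detected only with DOX at their bound), including Mcl1 (11.97 and 13.96, 1.99), Cflar, a brake on caspase-8 (2.31), and Bcl2l1, encoding BCL-XL (1.61). The 6 also include Birc3 and Bcl2, detected only with DOX with bounds of 1.81-fold and 0.81-fold, so the direction of Bcl2 is not resolved. Of 6 BH3-only and effector genes 2 were higher, Bbc3, encoding PUMA (9.24 and 11.58, 2.34), and Bcl2l11, encoding BIM (8.85 and 10.83, 1.98), and 1 was lower, Bid at -2.16 (median 0.82). The second probe of Bbc3 gave 0.88. Of 11 caspase and death receptor genes 5 were 2-fold higher and 1 lower (median 0.95). Fas had signals of 9.12 and 12.83 (3.71), Casp6 8.90 and 11.27 (2.37), and Cycs, encoding cytochrome c, 12.93 and 11.09 (-1.84). Of 14 analysed genes listed as p53 targets 7 were 2-fold higher and 1 lower (median 1.11). Ccng2 was at 3.94, Trp53inp1 at 3.41 (11.43 and 14.84) and Ccng1 at 1.24, but Mdm2, which degrades p53, at 0.98 and Zmat3 at -0.01. The lower gene was Aen, at least 2.59-fold lower. Others of the list, among them Cdkn1a, Pmaip1, Phlda3 and Perp, were detected on neither array. Control of these genes by p53 in these cells was not tested.

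Genes of the T-cell lineage were mostly higher with MYC off. Of 20 genes of the CD3 complex and early T-cell receptor signalling 17 were 2-fold higher and 1 lower (median 1.73). The CD3 chains Cd3d (13.29 and 15.04), Cd3e (13.14 and 14.86) and Cd3g (13.46 and 14.65) had ratios of 1.74, 1.72 and 1.19, and the zeta chain Cd247 2.73 (9.54 and 12.27). The kinase Tec stood at 3.12, the phosphatase Ptprc, which is CD45, at 2.88 (8.54 and 11.42), and Zap70 at 1.63. The lower gene was Ubash3a, a negative regulator, at -1.11. Of 23 T-cell surface receptors 17 were 2-fold higher and 0 lower (median 1.84). The 17 include Ly6d and Tnfrsf9, detected only with DOX with bounds of 0.96-fold and 0.93-fold, so their directions are not resolved. Cd27 had signals of 12.63 and 15.64 (3.01), Cd4 8.80 and 11.32 (2.53), and Cd28 10.11 and 12.28 (2.17). Cd8b1 lay at the top of the signal range on both arrays by its brightest probe (15.84 and 15.96), while its second probe had a log2 ratio of 1.93. Cd69, an early activation marker, was at least 11.3-fold higher.

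Of 19 thymocyte transcription factors and recombination genes 14 were 2-fold higher and 0 lower (median 1.54). The 14 include Notch1, detected only with DOX with a bound of 0.92-fold, so its direction is not resolved. Sox4 (10.61 and 13.80), Rag1, which cuts antigen receptor genes (12.51 and 14.89), and Bcl11b, a factor of T-lineage commitment (13.20 and 15.31), had ratios of 3.18, 2.38 and 2.11. Rag2, the partner of Rag1, was at least 5.51-fold higher, and Lef1 stood at 0.08. Of 15 homing and egress genes 10 were 2-fold higher and 0 lower (median 1.45). Of the 15, 7 were detected only with DOX and entered the count through that array, among them 5 of the 10, and the median of those detected on both arrays was 1.23. The higher genes included Coro1a at 1.86 (13.49 and 15.35) and the integrin genes Itgb7 and Itgal, at least 12.4-fold and 9.19-fold higher. Of 7 GIMAP genes, small GTPases of lymphocyte survival, 2 were detected on neither array and 2 on both, Gimap1 at 3.44 (8.47 and 11.92) and Gimap9 at 2.41. The other 3, Gimap6, Gimap7 and Gimap8, were detected only with DOX, at least 3.53-fold, 3.63-fold and 6.97-fold higher, and the median of the 5 was 3.43, or 2.41 with these at their bound. Over these T-cell lists together 63 of 82 genes were 2-fold higher and 1 lower, or 40 and 1 of the 56 detected on both arrays. Of the 23 surface receptors 11 were detected only with DOX, and their median was 1.29 over those detected on both arrays and 0.69 in the authors' processed values.

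Genes of immune signalling were higher in part. Over the lists below together 45 of 81 were 2-fold higher and 3 lower, or 32 and 1 of the 64 detected on both arrays. Relb, Il4ra and Pim1, counted as higher, were detected only with DOX, with bounds of 0.81-fold, 0.83-fold and 0.72-fold. Their directions are not resolved. Of 18 NF-kB genes 13 were 2-fold higher and 0 lower (median 1.46), among them the feedback inhibitors Tnfaip3 (7.68 and 11.01, 3.33) and Nfkbia (10.04 and 12.51, 2.48). Of 23 cytokine receptor, JAK, STAT and SOCS genes 12 were 2-fold higher and 1 lower (median 1.14, or 0.72 with genes detected on 1 array at their bound), with Jak1 at 2.07 (9.50 and 11.57) and Stat3 at 1.28. Of 18 analysed interferon-induced genes 10 were 2-fold higher and 2 lower (median 1.25), with Igtp at 2.77 (9.20 and 11.97), Ifi27 at 2.38 and Irf1 at 2.32. Bst2 was at -1.65 and Rsad2 at 0.03. Other genes of this list, among them Isg15, Ifit1, Irf7, Oas1a, Mx1 and Usp18, were detected on neither array. Of 11 MHC class I heavy chain genes 6 were 2-fold higher and 0 lower (median 1.09), from H2-T23 at 1.60 (11.98 and 13.58) to H2-T10 at -0.12 (10.66 and 10.54), with H2-K1 at 0.07. Peptide loading genes included Tapbpl at 2.28 and Tap2 at 1.90 (11.71 and 13.60), and 4 of 11 in that list were 2-fold higher and 0 lower (median 0.70).

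Lysosome and vesicle genes were more often higher than lower. Together 29 of 89 were 2-fold higher and 5 lower, or 23 and 3 of the 79 detected on both arrays. Of 28 lysosomal genes 12 were 2-fold higher and 2 lower (median 0.89). Psap, the precursor of the saposins, had signals of 12.22 and 14.46 (2.25), and the proteases and hydrolases Tpp1 and Smpd1 had ratios of 1.79 and 1.61. Lipa, the acid lipase, was at least 9.11-fold and Ctsl, a cathepsin, at least 4.85-fold higher, whereas Gusb was at -1.78. Of 28 autophagy genes 9 were 2-fold higher and 1 lower (median 0.77), with Map1lc3b, which coats the autophagosome, at 1.59 (9.64 and 11.23). Of 33 Rab GTPases 8 were 2-fold higher and 2 lower, near the background share for higher genes (median 0.46).

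Of 54 analysed histone genes 28 were 2-fold lower and 7 higher (median -1.28). Among 32 H2B, H3 and H4 genes of the histone clusters 27 were lower and 1 higher (median -1.80), while 14 cluster genes of H2A had 1 lower and 2 higher (median 0.09) and a median signal of 14.9 without DOX. The H2B gene H2bc12 had signals of 11.25 and 8.70 (-2.55) and the H3 gene H3c7 11.80 and 9.41 (-2.39) by its brightest probe. The second probe of H3c7 gave 0.76 and the average -0.81, so its size depends on the probe. Among 8 other histone genes 4 were higher and 0 lower (median 1.07), including the replication-independent H3f3b (13.79 and 14.97, 1.18). Of 28 histone and DNA methylation enzymes 6 were lower and 4 higher (median 0.05, a sign that changed with the scaling). Dnmt3b, a DNA methyltransferase, stood at -3.10 and the arginine methyltransferases Prmt3, Prmt5 and Prmt1 at -2.53, -1.77 and -1.69. The lysine methyltransferases Kmt2c and Kmt5b were each at 2.08, and Ezh2 of the Polycomb complex at 1.25 (12.16 and 13.41) by its brightest probe, -0.06 by its second and 0.60 averaged over probes. Of 16 SIN3-HDAC genes 5 were higher and 2 lower (median 0.27), with Hbp1 at 4.43, Kdm5a at 2.23 (8.14 and 10.37), Arid4a at 2.07 and Rbbp7 at -1.68.

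The sequence before the start of each gene was then searched for the E-box CACGTG, which reads the same on both strands. RefSeq promoter windows of 300 bases, from 250 before to 50 after the start on build GRCm38.p6, were held for 6887 of the analysed genes, in 8801 windows. The E-box was found in 14.8% of 1559 windows of genes 2-fold lower with DOX (95% Wilson interval 13.1 to 16.6, counting error only). It was found in 9.96% of 5341 windows of genes within 2-fold (9.19 to 10.8) and in 8.84% of 1901 windows of genes 2-fold higher (7.64 to 10.2). Over all 32851 windows in the table the share was 7.15%. Windows of genes with log2 ratios below -3 had the highest share, 19.5% of 149, and the share of those between 2 and 3 was 8.08%. The intervals of the lower and the other classes did not overlap, but windows of 1 gene and of gene families share sequence.

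**Figure D5:**
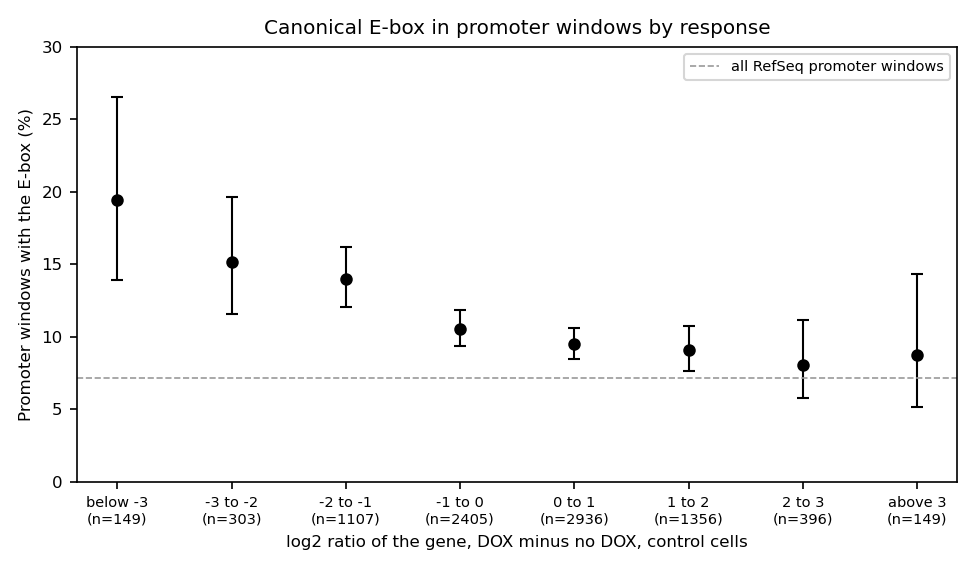
Share of RefSeq promoter windows that hold CACGTG (y axis, percent) by the log2 ratio of the gene (x axis, DOX minus no DOX), with 95% Wilson intervals and the number of windows. The share runs from 19.5% below -3 to 8.72% above 3, and the dashed line marks 7.15% of all windows.

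The median GC content was 60.3% in lower windows, 61.3% in those within 2-fold and 60.3% in higher windows. CACGTG contains a CpG, and the median number of CpG pairs per window was 21 in lower, 22 in within and 18 in higher windows. In windows with a GC content of up to 54.3% the E-box share was 8.31% for lower genes and 8.68% for those within 2-fold. From 54.7% to 61% GC the E-box was in 71 of 443 lower windows and 117 of 1341 within 2-fold, and from 61.3% to 67.3% GC in 74 of 383 and 151 of 1368. Above that it was in 15.5% and 11.4%. More E-boxes did not go with more lower genes: 26.0% of 757 genes with 1 E-box were 2-fold lower, 15.2% of 105 genes with 2 or more, and 17.6% of 6025 genes with none. E2F-like motifs were rarer. TTTCCCGC on either strand was in 2.82% of lower, 2.28% of within and 1.21% of higher windows, and 1.07% of all windows. TTTGGCGC was in 1.48%, 0.94% and 0.68%, and 0.51% of all. The forkhead motif GTAAACA was in 2.12%, 2.58% and 2.95%, and 3.65% of all. These are matches of letters and not measured binding.

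The lowest genes with the E-box in a window are shown with it in capitals, since they are the examples behind the share. Pusl1 and Ppa1 are described above. Gcat, which splits the threonine product of mitochondria into glycine and acetyl-CoA, had signals of 11.88 and 7.88, 15.9-fold lower. Cluh, which binds mRNAs of mitochondrial proteins, had signals of 10.85 and 6.96, 14.9-fold lower. The E-box starts 27 bases after the start site in Pusl1 and 2 bases after it in Gcat, and 140 bases before it in Ppa1 and 19 before it in Cluh.
Pusl1, chr4:155891713-155892012, minus strand: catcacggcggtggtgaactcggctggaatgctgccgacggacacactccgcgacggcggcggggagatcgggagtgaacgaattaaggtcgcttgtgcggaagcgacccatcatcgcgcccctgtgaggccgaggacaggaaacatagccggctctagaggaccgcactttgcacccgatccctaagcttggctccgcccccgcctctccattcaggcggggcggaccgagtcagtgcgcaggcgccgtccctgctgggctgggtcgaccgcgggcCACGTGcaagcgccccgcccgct
Ppa1, chr10:61648371-61648670, plus strand: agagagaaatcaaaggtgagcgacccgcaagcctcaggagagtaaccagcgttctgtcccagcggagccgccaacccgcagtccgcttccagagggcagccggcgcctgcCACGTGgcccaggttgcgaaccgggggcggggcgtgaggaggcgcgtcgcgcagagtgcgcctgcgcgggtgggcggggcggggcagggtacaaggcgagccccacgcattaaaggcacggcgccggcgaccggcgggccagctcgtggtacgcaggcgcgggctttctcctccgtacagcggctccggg
Gcat, chr15:79030624-79030923, plus strand: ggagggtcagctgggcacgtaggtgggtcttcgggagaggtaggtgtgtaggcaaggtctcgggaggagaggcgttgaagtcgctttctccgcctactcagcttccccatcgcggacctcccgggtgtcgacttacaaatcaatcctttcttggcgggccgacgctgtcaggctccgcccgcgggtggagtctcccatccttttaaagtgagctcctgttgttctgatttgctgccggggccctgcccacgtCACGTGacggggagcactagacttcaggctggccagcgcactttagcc
Cluh, chr11:74649254-74649553, plus strand: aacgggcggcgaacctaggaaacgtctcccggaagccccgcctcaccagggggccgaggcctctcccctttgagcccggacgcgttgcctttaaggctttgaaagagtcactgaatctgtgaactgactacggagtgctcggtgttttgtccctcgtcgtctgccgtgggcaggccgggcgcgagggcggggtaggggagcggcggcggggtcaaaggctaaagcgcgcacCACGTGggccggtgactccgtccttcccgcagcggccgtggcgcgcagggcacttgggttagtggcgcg
The windows of 2 of the highest genes, picked because they hold no CACGTG, follow. Both sets were picked by the motif, so they are examples and no evidence on its share. CACGTG was in 13 of 149 windows of genes with log2 ratios above 3, and in 29 of 149 below -3.
Txnip, chr3:96557707-96558006, plus strand: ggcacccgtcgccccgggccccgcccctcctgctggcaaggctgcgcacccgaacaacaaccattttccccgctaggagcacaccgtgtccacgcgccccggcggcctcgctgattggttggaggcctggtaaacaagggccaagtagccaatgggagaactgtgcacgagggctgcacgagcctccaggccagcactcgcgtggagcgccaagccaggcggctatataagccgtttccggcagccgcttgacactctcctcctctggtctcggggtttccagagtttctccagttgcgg
Tctex1d1, chr4:102978453-102978752, plus strand: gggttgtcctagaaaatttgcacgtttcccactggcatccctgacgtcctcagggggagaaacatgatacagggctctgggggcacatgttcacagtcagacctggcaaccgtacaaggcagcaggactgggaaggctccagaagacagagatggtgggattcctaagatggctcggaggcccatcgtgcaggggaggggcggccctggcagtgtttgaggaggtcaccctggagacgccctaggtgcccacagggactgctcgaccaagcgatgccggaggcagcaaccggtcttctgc
The Txnip window belongs to the gene that was 52.0-fold higher and the Tctex1d1 window to the one that was 34.4-fold higher, and their GC content was 65.3% and 60.3%.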

How the data were processed

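Biotin-labelled RNA of 4 cultures was measured on Illumina bead arrays, as the labels' protocols state. GenomeStudio is named in the submitters' processing notes with no version. The deposited table without normalization holds, per the file headers, a mean bead intensity and a detection p-value for each of 45281 probes and each array. The detection columns carry slide positions, and each was linked to the array whose signal orders its p-values. The authors' processed intensity table is a rescaling of each array by a method that the sources used here do not state, and it served as an alternative.

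From the deposited intensities, limma 3.58.1 in R 4.3.3 corrected the background by the normal-exponential method with detection p-values standing in for control beads, added an offset of 16, took log2 and quantile normalized the 4 arrays together. The platform annotation gave 1 gene to 34885 probes, several to 18 and none to 10378. Current symbols were found by gene number for 34807 named probes, and 78 kept the annotation's symbol. The brightest detected probe stood for its gene. Where the dimmer array did not detect a gene, its fold is a lower bound: the bright signal against the higher of the dim probe's signal and the lowest detected signal of that array (6.63 without DOX, 6.15 with DOX). Counts and medians use the measured ratios.

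The 20 highest and 20 lowest ratios among genes detected on both arrays, the 10 largest bounds each way, the 10 highest mean signals, the MYC network, the 4 widest probe conflicts and up to 4 members of each of 60 lists were named. Clone and predicted names were passed over, and other members complete a count or a contrast. The genes and lists were chosen with earlier results of these data known. With 1 array per group no test was run. The procedure was tested on simulated data, but no result of that test is given here and no value rests on it. The alternatives were no background correction, median scaling, quantile normalization of the control-cell arrays alone, the authors' processed values, an offset of 50, detection on both arrays, the mean over a gene's probes, and 3-fold classes for the promoter shares.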

Additional observations from a re-analysis of the deposited data

Results flagged for a closer look

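In 3 gene lists and 1 single gene the ratio had another sign in the miR-17-92 cells, the same line with that cluster in the vector, and none of these differences was tested, with 1 array per group. The median log2 ratio of the glycolysis genes was -0.48 in control cells and 1.13 in miR-17-92 cells, a difference of 1.61. That of the replication polymerase and fork genes was -1.25 and 0.08, a difference of 1.34. Histone genes had medians of -1.28 and 0.17, a difference of 1.44. In these latter 2 lists the miR-17-92 median is small, and with 1 array per group its sign is not resolved. Grasp, a scaffold protein gene, was at 1.39 in control cells and -1.65 in miR-17-92 cells, a difference of -3.03.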

How the results depend on the processing

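The count of genes at least 2-fold higher, 1720, was 1139 without background correction and 915 in the authors' processed values, and stayed within 1.5 times under the other 5 settings. The count of lower genes, 1535, lay between 1093 and 1528 under all 7. With median scaling the median ratio of all genes was 0.27 and higher genes were 62.4% of those past 2-fold, and in the authors' values it was -0.09. When the probes of a gene were averaged, the signs of Ddx49 (0.43), Dnajc19 (0.40), Exosc3 (0.11), H2bc21 (0.13), Sf3b6 (0.036) and Zfp276 (-0.0026) turned, and with detection on both arrays that of Zfp276 did (-1.49), because another probe then stood for it. Of 419 list medians under the alternatives, 362 moved by less than the spread between probes. The authors' values took the median from 1.64 to 0.88 for FOXO and KLF genes, 3.43 to 1.94 for GIMAP genes, 1.61 to 0.61 for pro-survival genes, 1.09 to 0.54 for MHC class I, 0.70 to 0.18 for peptide loading, 1.14 to 0.62 for cytokine receptors, and -0.32 to -0.68 for complex I, -0.38 to -0.77 for complexes II to V, -0.32 to -0.71 for the proteasome and -0.63 to -1.03 for initiation factors. Without background correction the histone median was -0.65 in place of -1.28, and with median scaling that of RNA polymerase III was -0.09 in place of -0.35. The E-box share with 3-fold classes was 16.4% of lower, 10.2% of middle and 8.38% of higher windows.

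No paired analysis was possible because each group held 1 array, and for the same reason no array could be left out. Ratios under the probe spread of 0.32, and folds of genes near the background, are not resolved, and passing 0.32 does not by itself resolve a ratio. The slide, the DOX treatment and any loss of RNA common to all genes cannot be told apart or seen here.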

Other observations

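Some close relatives of the same gene family had ratios on opposite sides of 0 in control cells. The pairs were picked after their values were seen and were not counted over a fixed list. Besides the D cyclins, Eif4e, the cap-binding factor, was at -1.10 and its relative Eif4e3 at 1.49, and Eif1a was at -2.64 and Eif1b at 1.19. Ctps, which makes CTP, was at -2.83 and Ctps2 at 0.67. The cytosolic thymidine kinase Tk1 was at -1.13 and the mitochondrial Tk2 at 1.38. Tfdp1 was at -1.79 and Tfdp2 at 0.48, and Cox7a2 of cytochrome oxidase at -1.33 and Cox7a2l, which helps join respiratory complexes, at 1.32. Other families kept 1 direction, such as the E cyclins and the CCT subunits described above.

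Of 4139 pairs of neighbouring analysed genes, both were 2-fold higher in 247, both 2-fold lower in 178, and opposite at that size in 253. The opposite count pools both orders of higher and lower, so these counts do not show which relation neighbours favoured. At 4-fold the counts were 32, 17 and 14. No count for unlinked genes was set beside these. Duplicated genes and shared probes count among them. Lower pairs included Hspd1 and Hspe1 (-2.84 and -3.28), Apex1 and Pip4p1 (-3.74 and -3.54), and Noc4l and Ddx51 (-2.14 and -2.18), both ribosome factors. Higher neighbours included the run Tnfaip3, Olig3 and Ifngr1 (3.33, 3.06 and 3.97), Klhl6 and Klhl24 (3.19 and 3.07), and Tapbpl and Cd27 (2.28 and 3.01).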
